A study of Homo sapiens with 6 samples.

Results

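The libraries labelled KRT17-KO2 were set against the libraries labelled KRT17-KO1. All 4 are labelled as NCI-N87, an established human gastric carcinoma line, and as a knockout of KRT17, the gene of keratin 17; the knockout libraries go against the line's markers, as described with the depth. Total RNA was sequenced from 2 libraries of each knockout group and from 2 wild-type (WT) libraries. WT is shown as a reference level and is not part of the difference tested. Its libraries do share in the estimate of spread and in the choice of tested genes, so they affect the p-values. No treatment, time point or drug is given for any group. The labels leave unsaid whether KO1 and KO2 stand for different guides, different clones or pools, and whether the numbered replicates are separate cultures, so every p-value measures only how far these libraries spread, possibly for technical reasons alone. A gene entered the comparison when it reached at least 1 FPKM (fragments scaled by exon length and by all mapped fragments) in both libraries of KO1 or in both libraries of KO2. That held for 13969 of the 58735 annotated genes, of which 10884 are protein coding. Of the 13969, 12668 reached the level in both knockout groups, 667 in KO1 alone and 634 in KO2 alone.

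As background, keratin 17 is an intermediate filament protein of stressed and stratified epithelia, and it is often abundant in carcinomas. NF-kB is a family of transcription factors that IkB proteins hold in the cytoplasm; once released, it switches on cytokines, chemokines, adhesion molecules and its own inhibitors NFKBIA and TNFAIP3. Interferon acts through STAT and IRF factors that bind a short promoter element, the interferon-stimulated response element (ISRE), and raises antiviral genes and the machinery that presents antigens on MHC class I. YAP and its paralogue TAZ (gene WWTR1) are co-activators of TEAD factors and are restrained by the Hippo kinases LATS1 and LATS2. The series title names keratin 17, YAP, IL6 and E-cadherin together, and the comparison of KO2 with KO1 asks how far the groups that carry the same knockout label differ in these and other genes.

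The promoters of IL6, CXCL8, TNFAIP3 and ISG15 are shown because these genes are among the 15 largest decreases in KO2. CXCL8 and TNFAIP3 are on the NF-kB list described below, ISG15 on the interferon list and IL6 on the IL6 and JAK/STAT list. Each is 300 bases of the plus strand from RefSeq (GRCh38.p14), 250 before and 50 after the annotated start, with matches to an NF-kB-type motif (GGANTTTCC, both strands) or to the ISRE (GAAA, NN and GAAA in a row, both strands) in capitals.
IL6, chr7:22726950-22727249: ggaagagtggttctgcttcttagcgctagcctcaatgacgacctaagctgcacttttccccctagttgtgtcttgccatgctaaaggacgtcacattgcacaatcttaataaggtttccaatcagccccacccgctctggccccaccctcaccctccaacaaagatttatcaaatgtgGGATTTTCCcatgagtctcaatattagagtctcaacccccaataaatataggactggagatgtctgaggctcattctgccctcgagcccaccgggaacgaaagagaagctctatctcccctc
CXCL8, chr4:73740319-73740618: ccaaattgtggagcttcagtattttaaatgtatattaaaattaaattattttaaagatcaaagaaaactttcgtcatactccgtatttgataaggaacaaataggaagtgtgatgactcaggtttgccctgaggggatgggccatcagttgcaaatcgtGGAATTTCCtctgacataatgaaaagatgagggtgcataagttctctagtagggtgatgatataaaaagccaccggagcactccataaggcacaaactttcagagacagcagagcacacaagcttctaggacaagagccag
TNFAIP3, chr6:137867009-137867308: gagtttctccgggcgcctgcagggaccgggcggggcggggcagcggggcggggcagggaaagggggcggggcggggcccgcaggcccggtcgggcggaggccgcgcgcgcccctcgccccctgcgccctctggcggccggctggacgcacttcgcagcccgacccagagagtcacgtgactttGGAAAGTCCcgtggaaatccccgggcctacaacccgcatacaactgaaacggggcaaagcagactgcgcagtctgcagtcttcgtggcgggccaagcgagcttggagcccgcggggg
ISG15, chr1:1013247-1013546: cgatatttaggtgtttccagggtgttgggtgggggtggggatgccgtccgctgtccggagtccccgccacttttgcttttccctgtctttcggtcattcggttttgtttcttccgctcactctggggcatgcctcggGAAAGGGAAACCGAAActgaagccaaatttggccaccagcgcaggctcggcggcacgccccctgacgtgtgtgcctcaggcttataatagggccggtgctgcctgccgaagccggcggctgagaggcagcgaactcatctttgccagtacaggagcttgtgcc
The NF-kB-type match began 72 bases before the start of IL6 and 91 bases before that of CXCL8. In TNFAIP3 it lay on the minus strand, 67 bases before the start, so the capitals show its reverse complement. ISG15 held overlapping ISRE matches that began 113 and 107 bases before its start. The NF-kB-type motif was found in 577 of 35116 promoters of the same length (1.64%) and in 9 of 14 matched promoters of the NF-kB and inflammatory cytokine list (64.3%): CXCL1, CXCL2, CXCL3, CXCL8, ICAM1, IL32, NFKB1, NFKBIA and TNFAIP3. The ISRE was found in 1255 of 35116 promoters (3.57%) and in 11 of 17 matched promoters of the interferon-stimulated list (64.7%). The motifs crossed over less: the NF-kB-type motif was in 3 of 17 promoters of the interferon list and the ISRE in 1 of 14 of the NF-kB list. A match describes letters and does not show a binding site. The lists name genes already tied to these pathways, so high shares follow from that choice. Listed members were counted whether called or not, so the shares say nothing about KO2 against KO1.

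Between 17599759 and 22852340 reads per library were recovered, and 13608 to 14133 genes per library reached 1 FPKM. The chi-square per degree of freedom between libraries, over genes with at least 20 reads, was 1.80 within KO1 and 2.40 within KO2, against 24.5 to 25.3 between KO1 and KO2 libraries. The libraries labelled KO1 and KO2 lack much of what defines NCI-N87. ERBB2, the amplified receptor gene of this line, was at 5.57 and 6.07 FPKM in the KO1 libraries, 5.27 and 5.30 in KO2 and 1355 and 1420 in WT. KRT19, a keratin of simple epithelia, was at 0.0367 and 0.151 in KO1, listed at 0 in both KO2 libraries, and at 1695 and 1762 in WT. EPCAM was between 2.795 and 3.335 in the 4 knockout libraries and at 188 and 185 in WT. Both knockout groups go against the line's markers alike, so every result below rests on libraries named by their label. Summed over the marker lists, NCI-N87 markers were at 510 to 521 FPKM in KO1, 431 to 434 in KO2 and 5523 to 5703 in WT. Fibroblast markers summed to 44.8 to 45.2 FPKM in KO1 and 55.5 to 58.1 in KO2 with PDGFRA at 0, and leukocyte markers to 1.78 to 1.82 and 3.30 to 3.53 with CD2 and MS4A1 at 0. Endothelial markers had the opposite order, with sums of 37.0 to 39.4 in KO1 and 21.3 to 23.1 in KO2, and with KDR and TEK at 0. Neuroendocrine markers summed to 14.9 in KO1 and 12.98 to 13.16 in KO2 (CHGB, INSM1 and SCG3 among those at 0), and melanocyte markers to 10.04 to 10.19 and 7.36 to 7.52 (DCT among those at 0). The part of these markers in the results was not tested, and in bulk RNA fewer cells of a type and less RNA per cell cannot be told apart.

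KO2 and KO1 differed in a large share of their genes, mostly by small amounts. Of 13969 genes, limma called 1770 higher in KO2 (12.7%) and 2366 lower (16.9%) at a Benjamini-Hochberg adjusted p below 0.05, which is 29.6% called in all. The 2 libraries of KO2 did not overlap those of KO1 for 9715 genes (69.5%). The median absolute log2 difference of called genes was 0.36 (middle range 0.25 to 0.53), against 0.15 over all 13969 genes. A difference of at least 1 on the log2 scale was reached by 271 genes, of which 82 were called higher and 138 lower, and 12 genes reached at least 2. The calls depended on every knockout library: there were 826 higher and 1003 lower without KO1 replicate 1, 832 and 1118 without KO1 replicate 2, 1080 and 1633 without KO2 replicate 1, and 1036 and 1467 without KO2 replicate 2. Fewer genes were also called when either WT library was left out, as WT shares in the estimate of spread. Tested against a fold of 1.5, 41 genes were called higher and 88 lower. Among the 12668 genes at 1 FPKM or more in all 4 knockout libraries, 12.5% were called higher and 17.1% lower, with a median log2 difference of -0.02. Those shares are the background for the gene lists below. List counts use only members that reached 1 FPKM in all 4 libraries, because a gene that qualified through a single group had to differ. Over the 10884 protein-coding genes of the comparison, however they qualified, 14.0% were called higher and 19.0% lower. List counts with a library left out stand beside the smaller totals over all genes given above.

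**Figure D1:**
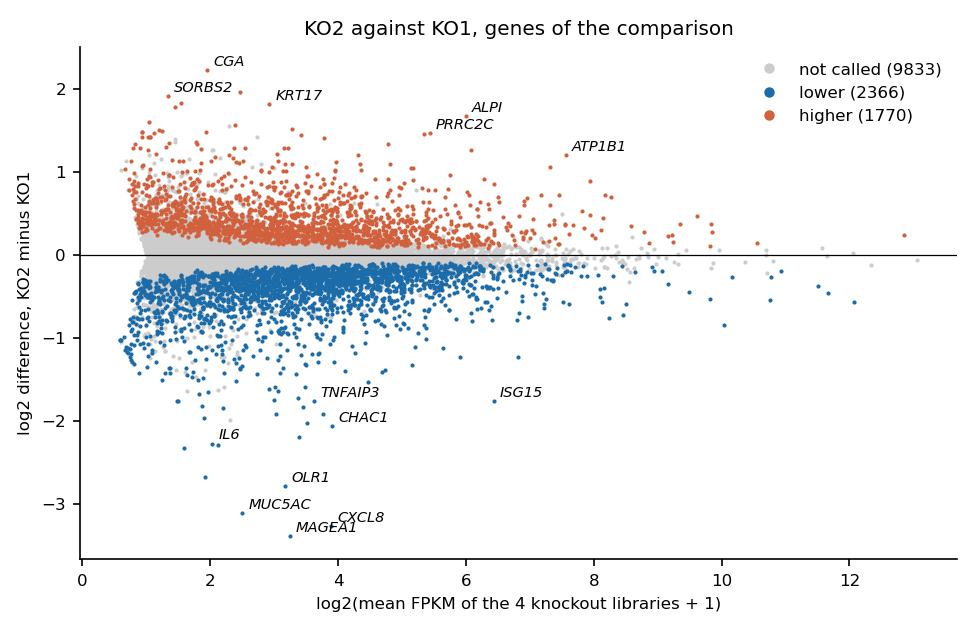
Difference between the knockout groups by expression level: each point is one of the 13969 genes, the horizontal axis is log2(mean FPKM of the 4 knockout libraries + 1) and the vertical axis the log2 difference KO2 minus KO1 on the log2(FPKM + 1) scale. Orange points (1770) were called higher in KO2 and blue points (2366) lower; the long tail lies on the lower side, with 11 of the 12 genes beyond 2.

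The targeted gene itself differed between the groups. KRT17 (ENSG00000128422, chr17:41619441-41624842) was at 2.29 and 2.40 FPKM in KO1, 11.3 and 10.4 in KO2 and 739 and 753 in WT. Both KO2 libraries lay above both KO1 libraries, 4.63-fold by their means (338 reads in KO1 and 1299 in KO2; log2 difference 1.83 ± 0.05 SE, limma Benjamini-Hochberg adjusted p = 1.94e-04). Its neighbours did not share this shift: of 30 genes within 1 Mb, 2 were called higher and 8 lower, with a median of -0.06. These reads count as KRT17 by the annotation and may be shared with near-identical keratin copies.

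IL6, the cytokine of the series title, went the other way. IL6 (chr7:22725884-22732002) was at 5.74 and 5.76 FPKM in KO1, 0.271 and 0.547 in KO2 and listed at 0 in both WT libraries. Both KO2 libraries were below both KO1 libraries, with 32 reads in all against 548 (14.1-fold by means, log2 difference -2.27 ± 0.11, limma adjusted p = 6.42e-04). IL6 was under 1 FPKM in KO2 and entered the comparison through KO1. Its direction and lack of overlap therefore follow from how it qualified. YAP1 was at 36.8 and 35.7 FPKM in KO1 and 26.5 and 27.5 in KO2, a decrease without overlap (-0.41 ± 0.03, adjusted p = 0.0017). WT lay between at 31.7 and 30.8, and YAP1 sits in a stretch of chromosome 11 whose genes were lower in KO2, described below. WWTR1 was at 5.93 and 5.46 in KO1 and 5.46 and 5.83 in KO2, so the groups overlapped. Its difference of -0.01 ± 0.05 was not called (adjusted p = 0.919) and changed sign under quantile, median-of-ratios and library-size scaling. VIM, the mesenchymal intermediate filament gene, was at 39.6 and 38.5 in KO1 and 40.3 and 41.5 in KO2 and was not called (0.07 ± 0.08, adjusted p = 0.592). STAT3, the factor downstream of IL6 receptors, was at 13.5 and 13.8 in KO1 and 11.8 and 11.6 in KO2. That decrease (-0.21 ± 0.04, adjusted p = 0.0246) lost its call when any one of the 4 knockout libraries was left out and without the filter on low values. CDH1, the gene of E-cadherin, fell outside the comparison because it was under 1 FPKM in every knockout library: 0.153 and 0.157 in KO1 and 0.421 and 0.567 in KO2, against 58.5 and 60.6 in WT. It was called higher in KO2 (116 reads against 44, 0.37 ± 0.06, adjusted p = 0.0149), but not without WT replicate 1, WT replicate 2, KO1 replicate 1 or KO1 replicate 2.

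Genes of the NF-kB pathway and inflammatory cytokines were lower in KO2 almost throughout. Of 14 listed genes at 1 FPKM or more in all 4 libraries, 13 were called lower, against a background of 17.1%, with a median log2 difference of -1.09. RELA, an activating subunit of NF-kB, was the one not called, at 28.4 and 27.6 FPKM in KO1 and 26.1 and 26.9 in KO2 (-0.08). CCL5, CCL20, CXCL1 and CXCL3 qualified through KO1 alone, a filter that favours lower values in KO2, and were lower there. The count over the 14 was 11 to 12 when any one library was left out. BIRC3 and IL18 lie in the lower stretch of chromosome 11.
CXCL8, the neutrophil chemokine interleukin 8, was at 27.2 and 24.7 FPKM in KO1, 1.86 and 1.75 in KO2 and 3.10 and 2.801 in WT. Both KO2 libraries lay far below both KO1 libraries and also below WT (14.4-fold under KO1 by means, log2 difference -3.26 ± 0.07, adjusted p = 1.61e-04). TNFAIP3, the deubiquitinase A20 that ends NF-kB signalling, was at 18.1 and 18.1 in KO1, 4.75 and 4.59 in KO2 and 2.66 and 2.39 in WT. Here KO2 was 3.88-fold under KO1 but remained above WT (-1.75 ± 0.05, adjusted p = 2.66e-04). ICAM1, an adhesion molecule for leukocytes, showed the same order, with 14.0 and 13.5 in KO1, 4.45 and 4.51 in KO2 and 2.20 and 2.23 in WT (-1.43 ± 0.04, adjusted p = 2.66e-04). The listed subunit genes of NF-kB other than RELA were lower in both KO2 libraries. NFKB2 was at 35.0 and 34.8 in KO1 and 17.2 and 17.6 in KO2, and NFKB1 at 9.93 and 10.3 against 5.15 and 4.98. RELB was at 6.98 and 6.91 in KO1 and 2.14 and 2.01 in KO2. For these 3 subunits WT lay elsewhere, between the groups for NFKB2 (24.2 and 25.1) and above both for NFKB1 (13.5 and 14.1) and RELB (9.003 and 9.579). CCL5, a T-cell chemokine, was at 6.35 and 6.11 in KO1, 1.15 and 0.891 in KO2 and 7.93 and 9.76 in WT, and CXCL1, another neutrophil chemokine, at 4.99 and 3.77, 0.827 and 0.540, and 5.83 and 7.81. WT was above both knockout groups for CCL5 and CXCL1. The knockout groups did not overlap, but both genes qualified through KO1 alone, a filter that favours this order. The apoptosis inhibitor BIRC3 was at 11.6 and 10.5 in KO1 and 2.76 and 3.31 in KO2, and the cytokines CSF1 (5.57 and 5.90 against 1.42 and 1.64) and IL32 (54.8 and 54.1 against 26.8 and 26.4) were lower in both KO2 libraries too. PTGS2, the inducible cyclooxygenase, moved least among the called members, from 8.79 and 8.80 to 7.16 and 7.59 (-0.23 ± 0.05, adjusted p = 0.0259). Over the 18 listed genes of the comparison the WT mean was below both groups for 7, between them for 5 and above both for 6.

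**Figure D2:**
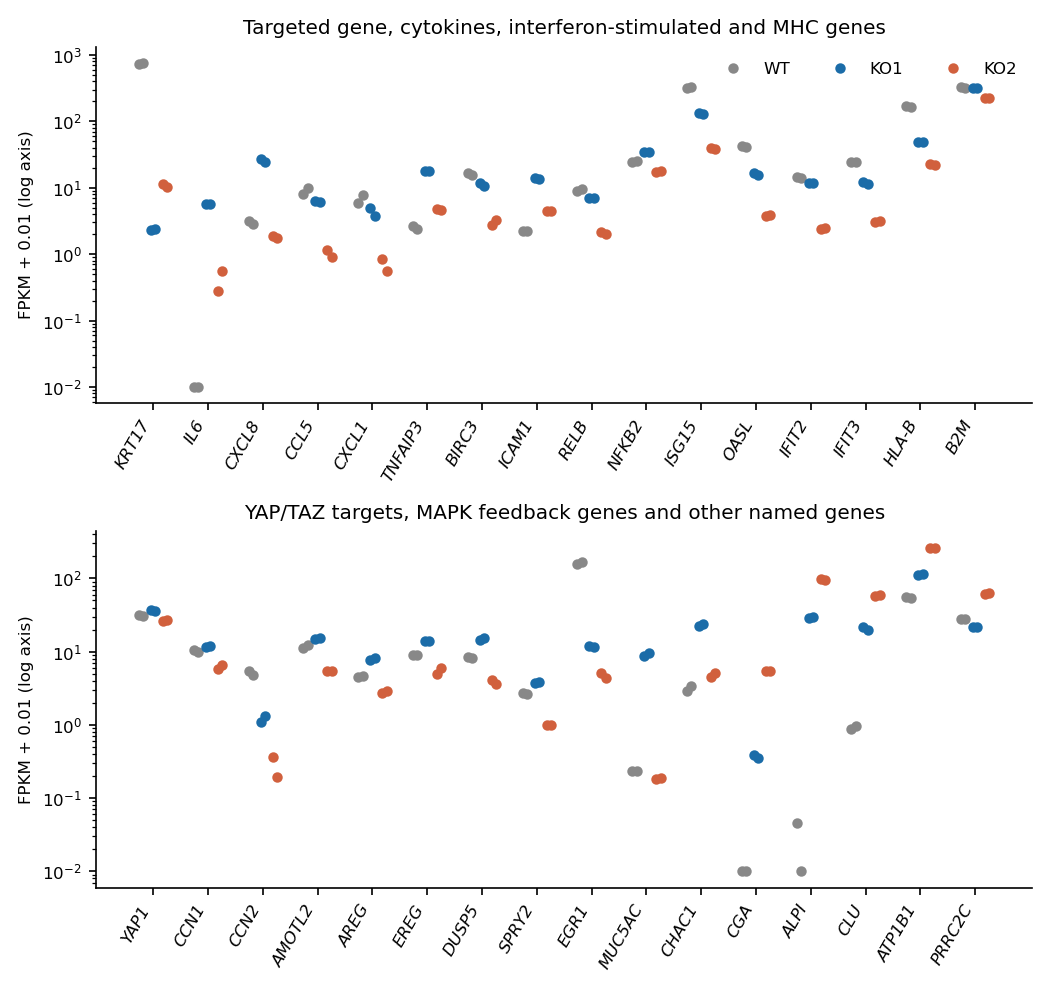
FPKM per library of selected genes (vertical log axis, 0.01 added so that zeros can be drawn): grey points are WT, blue KO1 and orange KO2, with 2 libraries of each. Replicates lie close together; KRT17 is higher in KO2, whereas IL6, CXCL8, TNFAIP3, ISG15, OASL, AMOTL2, DUSP5 and MUC5AC are lower there than in KO1.

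The wider IL6 and JAK/STAT list was mixed. Of 20 genes in all 4 libraries, 6 were called higher and 10 lower (background 12.5% and 17.1%, median -0.22), and IL6 itself qualified through KO1 alone. The higher count was 2 without KO1 replicate 1, KO1 replicate 2 or KO2 replicate 1, and the lower count was 6 without KO1 replicate 1 or KO2 replicate 2. OSMR, the oncostatin M receptor, was at 50.9 and 51.1 FPKM in KO1 and 27.0 and 29.1 in KO2 (-0.84 ± 0.05, limma adjusted p = 8.19e-04), and the shared signal transducer IL6ST was lower by -0.41. IL6R, the receptor subunit that binds IL6, was higher, at 2.92 and 3.03 in KO1 and 6.53 and 6.76 in KO2 (0.94 ± 0.06, adjusted p = 0.00103). IL6R lies in a stretch of chromosome 1 whose genes were higher in KO2. PIM1, a kinase gene driven by STAT factors, was at 23.96 and 24.04 in KO1 and 18.3 and 18.0 in KO2 (-0.38). None of these pairs overlapped. Among other members STAT5A (-0.59), JAK1 (-0.26) and the cytokine LIF (-0.45) were lower, and the feedback inhibitor SOCS3 (0.55) and the LIF receptor LIFR (0.29) were higher. SOCS3 lies in a higher stretch of chromosome 17. Receptor genes went both ways.

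Most interferon-stimulated genes were lower in KO2, by amounts that differed widely between members. Of 22 genes in all 4 libraries, 16 were called lower (background 17.1%), with a median of -0.31, and the count was 11 to 14 with any one library left out. ISG15, a ubiquitin-like modifier, was at 135 and 130.2 FPKM in KO1, 39.3 and 38.0 in KO2 and 316 and 331 in WT. The groups formed 3 separate levels with KO2 the lowest, 3.44-fold under KO1 (-1.76 ± 0.04, adjusted p = 1.61e-04). OASL was at 16.4 and 15.8 in KO1, 3.76 and 3.94 in KO2 and 42.2 and 41.3 in WT, and IFIT3, which binds viral RNA with its relatives, at 12.02 and 11.23, 2.995 and 3.162, and 24.82 and 24.04. IFIT2 was at 11.9 and 11.9 in KO1, 2.41 and 2.48 in KO2 and 14.8 and 13.8 in WT. All 3 had the order WT, KO1, KO2 without overlap, and the log2 differences between the knockout groups were -1.82, -1.63 and -1.91. IFIT1 (-1.24) and RIGI, the cytoplasmic RNA sensor (-1.25), were lower by similar amounts. The interferon signalling factors STAT2 (-0.03) and IRF7 (-0.02) were not called. The WT mean was above both knockout groups for 22 of the 23 listed genes of the comparison, ISG20 being the member that qualified through KO1 alone. Antigen presentation genes followed: 11 of 15 were called lower, with a median of -0.44, and the count was 9 to 11 with any one library left out. The background of 17.1% holds for these genes too. HLA-B was at 49.3 and 49.2 in KO1, 22.5 and 22.4 in KO2 and 172 and 167 in WT (-1.10 ± 0.02, limma adjusted p = 1.63e-04), a value that may include reads of other HLA genes. TAP1, the peptide transporter, was at 32.9 and 32.7 in KO1 and 18.2 and 17.3 in KO2, and the immunoproteasome subunit PSMB9 at 16.1 and 17.2 against 7.99 and 7.61. B2M, the light chain of MHC class I, was at 320.3 and 316 in KO1, 228 and 223 in KO2 and 334 and 314 in WT. The WT range of B2M takes in both KO1 values, and KO2 lies below them (-0.50 ± 0.04, adjusted p = 0.00154).

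**Figure D3:**
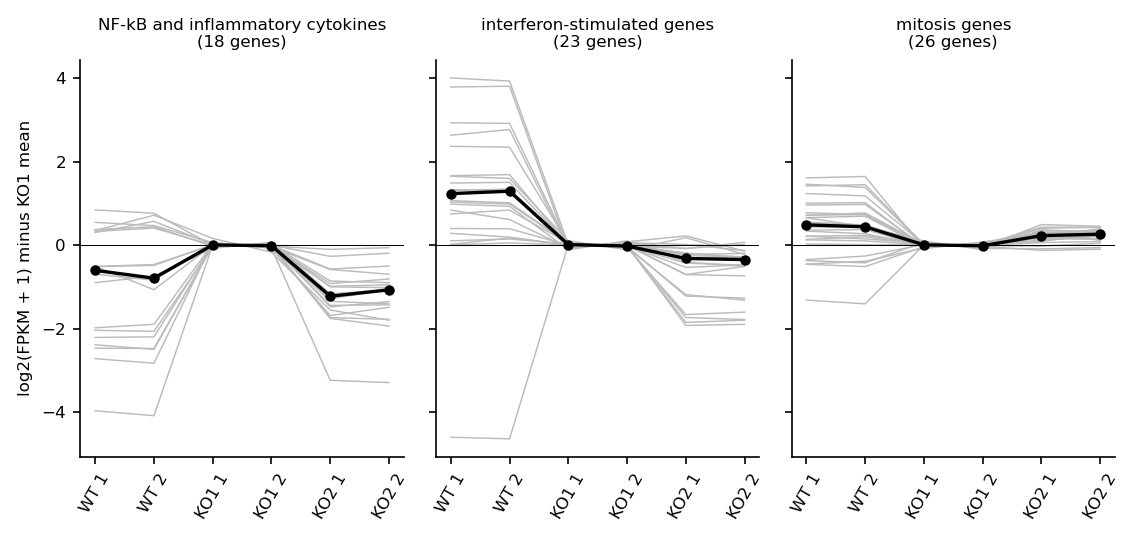
Log2(FPKM + 1) of each gene in each library, minus its mean over the KO1 libraries, for the NF-kB, interferon-stimulated and mitosis lists: grey lines are genes, the black line is the median over the list, and the order of libraries carries no time. The KO2 medians lie below the KO1 level in the first 2 lists and above it in the mitosis list.

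Most listed immediate early genes and phosphatases were also lower in KO2. Of 25 immediate early genes, MAPK phosphatases and Sprouty genes in all 4 libraries, 18 were called lower and 2 higher (JUND at 0.56 and NR4A3 at 0.27), with a median of -0.50. The background shares, also for the receptor list below, were 17.1% lower and 12.5% higher. FOS (-0.11) and DUSP10 (-0.07) were among those not called. With any one library left out there were 13 to 17 lower and 1 higher. DUSP5, a phosphatase of nuclear ERK, was at 14.5 and 15.1 FPKM in KO1, 4.10 and 3.56 in KO2 and 8.32 and 8.08 in WT (-1.71 ± 0.06, adjusted p = 3.70e-04). EGR1, a transcription factor induced by ERK, was at 11.8 and 11.5 in KO1 and 5.11 and 4.41 in KO2 but at 158 and 167 in WT (-1.14 ± 0.07, adjusted p = 9.00e-04). DUSP4 was at 17.6 and 17.6 in KO1, 9.59 and 9.98 in KO2 and 0.491 and 0.435 in WT. The knockout groups did not overlap for these genes, while WT was between them for DUSP5, above both for EGR1 and below both for DUSP4. SPRY2, an inhibitor of receptor signalling, qualified through KO1 alone (3.68 and 3.87 against 0.991 and 0.993), so its direction follows from how it qualified. SPRY2 lies on chromosome 13 in a stretch that was lower in KO2. Among receptor tyrosine kinases and their ligands 12 of 25 were called lower and 5 higher (median -0.18), and the higher count was 2 without KO1 replicate 2 or KO2 replicate 1 and 3 without either other knockout library. The EGFR ligands led: AREG was at 7.62 and 8.09 in KO1, 2.76 and 2.91 in KO2 and 4.44 and 4.66 in WT, and EREG at 13.8 and 13.9, 4.961 and 6.001, and 9.01 and 8.95. WT lay between the knockout groups for both ligands, whose log2 differences were -1.21 ± 0.05 and -1.20 ± 0.08 (adjusted p = 5.67e-04 and 0.00119). EGFR was at 32.0 and 31.3 in KO1 and 22.3 and 21.9 in KO2 (-0.50), EPHA2 at 39.5 and 41.0 against 22.2 and 22.8 (-0.81), and GAS6, the ligand of AXL, at 14.8 and 14.8 against 9.19 and 9.02 (-0.65). All 3 were lower in both KO2 libraries.

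YAP/TAZ target genes were lower in KO2 in 14 of 20 cases (median -0.48), and 11 to 13 were called with any one library left out. The background share called lower was 17.1%. CCN1, a secreted matrix protein, was at 11.7 and 11.8 FPKM in KO1, 5.82 and 6.56 in KO2 and 10.7 and 9.96 in WT. KO2 was lower than KO1 without overlap, and WT lay between but near KO1 (-0.83 ± 0.06, adjusted p = 0.00165). CCN2, its relative, qualified through KO1 alone with 1.08 and 1.32 in KO1, 0.349 and 0.184 in KO2 and 5.39 and 4.73 in WT (129 reads against 24, -0.80 ± 0.11, limma adjusted p = 0.00733). The direction of CCN2 follows from how it qualified. AMOTL2, an angiomotin that is both a target and a brake of YAP, was at 14.7 and 15.3 in KO1 and 5.37 and 5.52 in KO2 (-1.31 ± 0.05, adjusted p = 4.14e-04). F3, the tissue factor gene, was at 31.9 and 31.5 in KO1 and 19.5 and 19.9 in KO2, and FSTL1 at 15.9 and 15.8 against 9.90 and 9.85; neither overlapped. ANKRD1 gave 1 read in KO1 and was listed at 0 in KO2, so nothing can be said of it. Hippo pathway genes were called lower in 8 of 20 cases (background 17.1%, median -0.09), led by AMOTL2, WWC1 (-0.72, 26.2 and 26.0 against 15.9 and 15.1) and LATS2 (-0.63). The Hippo count was 5 without any one library other than KO2 replicate 2. LATS2, like YAP1, lies in a stretch that was lower in KO2 as a whole, on chromosome 13.

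TGF-beta and BMP pathway genes were called lower in 12 of 23 cases and higher in 2 (median -0.20), with 7 lower without KO1 replicate 1, KO1 replicate 2 or KO2 replicate 2, and 1 higher without KO1 replicate 1 or either KO2 replicate. The background, also for the Wnt list below, was 17.1% lower and 12.5% higher. The receptor TGFBR1 was at 13.1 and 12.9 FPKM in KO1, 5.58 and 5.83 in KO2 and 9.85 and 9.67 in WT (-1.06 ± 0.04, limma adjusted p = 3.50e-04). BMP6, a ligand, was at 21.7 and 20.6 in KO1 and 13.7 and 13.6 in KO2, and ID1, a target of BMP signalling, at 329 and 339.8 against 226 and 226. Every KO2 value of these genes was below every KO1 value. INHBB, a subunit of activins and inhibins, qualified through KO1 alone, at 4.94 and 4.49 against 0.462 and 0.807 (-1.81), so its direction follows from how it qualified. In the Wnt list 4 of 19 were called higher and 6 lower (median 0.02), and the lower count was at least 4 with any one library left out. The members moved in both directions: MYC was at 99.2 and 101 in KO1 and 62.8 and 63.3 in KO2 (-0.66 ± 0.02, adjusted p = 3.50e-04), whereas the ligand WNT3 was at 7.25 and 7.50 against 10.5 and 11.1 (0.50) and the receptor FZD2 at 9.82 and 9.71 against 12.95 and 13.41 (0.40). NKD2, an inhibitor of Dishevelled, was at 1.41 and 1.39 in KO1 and 3.86 and 3.29 in KO2 (0.93). None of the 4 pairs overlapped.

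Stress response genes split in direction. Of 26 genes of ATF4 and the unfolded protein response, 15 were called lower (11 to 13 with any one library left out) and 1 higher (0 without either KO1 library), with a median of -0.30. The background share called lower was 17.1%. CHAC1, which degrades glutathione and is a target of ATF4, was at 22.4 and 23.9 FPKM in KO1, 4.46 and 5.13 in KO2 and 2.86 and 3.36 in WT. It was 4.82-fold lower in KO2 than in KO1 and nearer to WT there (-2.06 ± 0.09, adjusted p = 5.40e-04). ATF4 itself was at 136.5 and 136.4 in KO1 and 95.7 and 97.9 in KO2, PSAT1, an enzyme of serine synthesis, at 63.0 and 65.2 against 40.5 and 40.2, and DDIT3, the factor CHOP, at 12.2 and 12.8 against 6.36 and 5.32. HSPA5, the chaperone BiP of the endoplasmic reticulum, was at 440 and 431 in KO1 and 287 and 292 in KO2 (-0.59), and lies in a lower stretch of chromosome 9. Genes of the heat shock list were higher more often than the background of 12.5%. Of 18, 8 were called higher, 1 lower and 9 not called, with a median of 0.10. The higher count was the same or smaller with any one library left out. HSPA1B was at 16.9 and 17.7 in KO1 and 26.49 and 25.04 in KO2 and its near-identical copy HSPA1A at 28.1 and 28.4 against 42.4 and 41.8, values that may share reads. DNAJB1, their co-chaperone, was at 39.9 and 39.2 in KO1 and 46.8 and 48.4 in KO2 (0.26). HSPH1, the single lower member (20.9 and 20.9 against 16.5 and 16.5, -0.32), lies in the lower stretch of chromosome 13.

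Mitosis genes were modestly higher in KO2. For this and the following lists the background was 12.5% called higher and 17.1% lower. Of 26 genes, 18 were called higher, with a median of 0.25 and a highest value of 0.48 (KIF20A), and 11 were called without KO1 replicate 2 or without KO2 replicate 2. BIRC5, the survivin gene, was at 25.2 and 25.9 FPKM in KO1, 34.9 and 34.8 in KO2 and 33.2 and 33.5 in WT, and lies in a higher stretch of chromosome 17. AURKA, a spindle kinase, was at 28.4 and 27.5 in KO1, 37.4 and 38.0 in KO2 and 38.2 and 38.2 in WT (0.42 ± 0.03, adjusted p = 0.00113). CDC20, an activator of the anaphase-promoting complex, was at 38.5 and 37.6 in KO1, 45.9 and 46.0 in KO2 and 104 and 106 in WT. The 2 knockout groups did not overlap for these genes, and MKI67, the proliferation marker, was not called (-0.11). Of the DNA replication genes, 5 of 28 were called higher and 2 lower (median 0.01), and with one library left out 1 to 3 were higher and 0 to 1 lower. FEN1, a flap endonuclease, was at 76.1 and 77.4 in KO1 and 95.4 and 94.3 in KO2 and lies in a short higher stretch of chromosome 11. Clustered histone genes were called higher in 9 of 14 cases (median 0.48, 5 without KO1 replicate 1), but 11 of the 15 listed genes of the comparison lie in stretches on chromosomes 1 and 6 that were higher in KO2, and only 1 of the 4 outside was called. H2BC5 was at 22.1 and 21.97 in KO1 and 40.4 and 42.1 in KO2, and H2AC6 at 21.4 and 21.3 against 34.4 and 33.9; histone copies resemble each other, so these values are uncertain. Of 25 targets of p53 and cell cycle inhibitors, 3 were called higher and 7 lower (median -0.08). Those counts were 1 to 4 and 2 to 6 with any one library left out, the lowest higher count without KO1 replicate 2 or either KO2 replicate and the lowest lower count without KO1 replicate 2. TNFRSF10B, a death receptor, was at 28.7 and 29.5 in KO1 and 23.0 and 22.3 in KO2 (-0.35), and CDKN2B, an inhibitor of CDK4, at 8.86 and 9.54 against 7.28 and 7.07 (-0.32).

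Simple keratins, integrins and laminins were lower in KO2 more often than the background of 17.1%, and junction genes were mixed. The 4 genes at 1 FPKM or more on the simple keratin list, which was written to include KRT80, were all called lower. KRT80 was at 28.8 and 27.1 FPKM in KO1 and 13.3 and 12.7 in KO2 (-1.05 ± 0.05, limma adjusted p = 6.58e-04). KRT8 (-0.24), KRT18 (-0.29) and KRT7 (-0.24) were lower by less. KRT8 was at 195 and 197 in KO1, 167 and 166 in KO2 and 1137 and 1159 in WT. The stratified keratin list was written to include KRT81 and KRT86. On it KRT10 (-0.20) and KRT86 (-0.17) were in all 4 libraries and not called, and KRT81 (0.62, through KO2 alone) missed the threshold. In junctions 2 of 15 were called higher and 4 lower (median -0.03, with 1 to 2 and 2 when any one library was left out), and CLDN1, a tight junction claudin, was at 14.3 and 13.7 in KO1, 5.68 and 6.46 in KO2 and 0.0379 and 0.0297 in WT (-1.09 ± 0.07, adjusted p = 0.00106). F11R, a junctional adhesion molecule, was higher, at 4.83 and 4.81 in KO1 and 7.49 and 7.06 in KO2. Desmosome genes had 2 of 6 lower (PERP at -0.38 and PKP2 at -0.41; median 0.05). Integrins and laminins had 9 of 17 lower and 2 higher (median -0.19; 6 to 9 and 1 to 2 with any one library left out). ITGA2, a collagen receptor subunit, was at 10.5 and 10.5 in KO1 and 4.84 and 5.31 in KO2 (-0.92), and LAMA3, a laminin chain of basement membranes, at 1.09 and 1.12 against 2.17 and 2.26 (0.61).

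Collagens and matrix glycoproteins were called higher in 7 of 19 cases and lower in 5 (median 0.01), the lower count being 1 without KO1 replicate 1, 2 without KO1 replicate 2 and 3 without KO2 replicate 2. For this and the following lists the background was 12.5% called higher and 17.1% lower. COL1A1 was at 9.37 and 9.05 FPKM in KO1 and 15.4 and 15.7 in KO2 (0.70), FBLN2 at 7.77 and 7.24 against 14.1 and 13.2 (0.78) and DCN at 5.99 and 5.70 against 8.88 and 8.93 (0.53). The anchoring fibril gene COL7A1 went the other way, at 176 and 179 in KO1 and 119.8 and 116 in KO2 (-0.59). COL1A1 and DCN are also on the list of fibroblast markers, whose summed level is given above and whose PDGFRA was at 0. Matrix proteases and inhibitors had 6 of 14 lower and 2 higher (median -0.11; 1 higher without either KO1 replicate or KO2 replicate 2). SERPINE2, an inhibitor of thrombin and urokinase, was at 6.49 and 6.09 in KO1 and 2.04 and 2.08 in KO2 (-1.25), and PLAU, urokinase itself, at 4.14 and 4.44 against 2.40 and 2.57 (-0.60). Mesenchymal genes and EMT factors had 5 of 16 higher and 1 lower (median 0.07), and 2 to 3 higher with any one library left out. SNAI1, a repressor of CDH1, was at 1.83 and 1.72 in KO1, 4.27 and 3.77 in KO2 and 4.83 and 4.17 in WT. The knockout groups did not overlap and the KO2 range met that of WT (0.85 ± 0.09, adjusted p = 0.00322). S100A4 was at 566 and 569 in KO1 and 764 and 717 in KO2 (0.38), in a higher stretch of chromosome 1. Squamous genes were lower in 2 of 3 cases: the elastase inhibitor PI3 was at 22.9 and 24.9 in KO1 and 7.603 and 9.428 in KO2 (-1.39), and the cross-linking enzyme TGM1 at 3.56 and 3.92 against 1.84 and 1.72 (-0.77). Gut endoderm and differentiation markers had 2 of 12 higher and 3 lower (median -0.03; 1 lower without any one knockout library, and 1 higher without any one library but KO2 replicate 2). MUC1 was at 30.2 and 30.6 in KO1 and 46.7 and 49.2 in KO2 in the higher stretch of chromosome 1, and KLF5 at 83.7 and 82.0 against 56.8 and 59.6 in the lower stretch of chromosome 13.

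Metabolic lists differed in their counts, which stand beside a background of 12.5% called higher and 17.1% lower. Hypoxia and glycolysis genes had 2 of 31 higher and 7 lower (median 0.01), with 3 lower without either KO1 replicate and 4 without either KO2 replicate, and 4 higher without either WT replicate. HK1, a hexokinase, was at 24.1 and 23.3 FPKM in KO1 and 16.4 and 16.4 in KO2 (-0.50), and ANGPTL4 at 13.61 and 13.01 against 8.12 and 7.62 (-0.69). PGK1, a glycolytic kinase in a higher stretch of the X chromosome, was at 205 and 203 in KO1 and 288 and 285 in KO2 (0.49). Cholesterol and fatty acid synthesis had 6 of 31 higher and 11 lower (median -0.09; 5 lower without KO1 replicate 1 and 7 without KO1 replicate 2). SQLE, which makes squalene epoxide, was at 35.4 and 35.7 in KO1 and 25.8 and 25.4 in KO2 (-0.46), with HMGCS1 (-0.40) and MSMO1 (-0.41) lower as well. The higher members FDPS (0.64), PMVK (0.79) and FASN (0.65) lie in higher stretches of chromosomes 1 and 17. Oxidative stress and xenobiotic enzymes had 2 of 18 higher and 5 lower (median -0.09; 1 and 3 without KO1 replicate 1), among them HMOX1, heme oxygenase, at 8.77 and 8.43 in KO1 and 14.5 and 14.4 in KO2 (0.69). Nuclear respiratory chain genes had 2 of 29 higher and 10 lower (median -0.13; 3 lower without either KO1 replicate and 4 without KO2 replicate 2), with NDUFS3 at 18.0 and 17.7 in KO1 and 13.1 and 13.1 in KO2 (-0.42). Mitochondrially encoded mRNAs had 2 of 13 in each direction (median -0.01; 0 higher and 1 lower without any one WT or KO1 replicate), and MT-ND3, a subunit of complex I, was at 2058 and 2039 in KO1 and 1442 and 1386 in KO2 (-0.53). Ribosomal protein genes had 8 of 31 lower and 1 higher (median -0.10; 1 lower without either KO1 replicate, 5 without KO2 replicate 2 and 12 without KO2 replicate 1), led by RPL35 at 433 and 442 against 280.2 and 253 (-0.71), which lies in a lower stretch of chromosome 9 and whose reads may be shared with pseudogenes. HOX genes had 5 of 21 higher and 3 lower (median -0.05; 1 to 3 higher with any one library left out, and 1 lower without either KO1 replicate). HOXB13, a marker of hindgut and prostate, was at 4.83 and 4.84 in KO1, 11.2 and 10.5 in KO2 and listed at 0 in WT (1.02 ± 0.05, adjusted p = 7.00e-04). Cancer-testis antigens had 1 of 5 higher (a call lost without any one knockout library; median -0.08), and MAGEA1 qualified through KO1 alone.

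**Figure D4:**
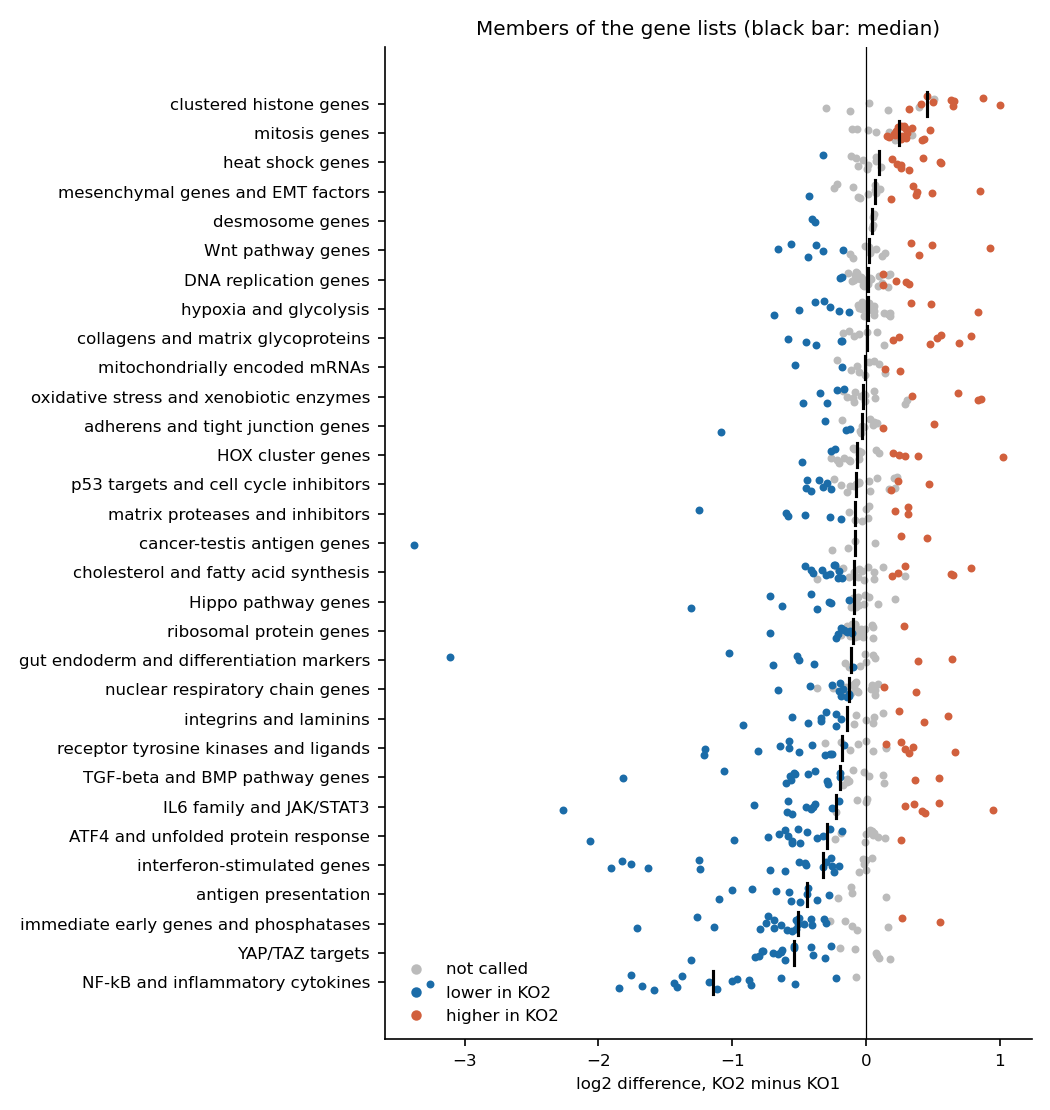
Log2 difference KO2 minus KO1 of every listed gene of the comparison, one row per list with at least 5 such genes: blue points were called lower, orange points higher and grey points not called, and the black bar is the median over all points of the row, including genes that qualified through one group alone. The NF-kB list lies farthest to the left (median -1.14) and the clustered histone list farthest to the right (median 0.46).

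Beyond the lists, the largest differences fell in genes of varied function. MAGEA1, a cancer-testis antigen of the X chromosome, was at 15.9 and 16.7 FPKM in KO1, 0.806 and 0.535 in KO2 and 0 in WT (-3.38 ± 0.09, adjusted p = 2.62e-04); MAGEA11 was at 5.30 and 5.78 in KO1 with 883 reads and had 3 reads in KO2. Members of this family share sequence, so their reads may be exchanged. MUC5AC, the gel-forming mucin of gastric surface cells, was at 8.78 and 9.54 in KO1, 0.175 and 0.176 in KO2 and 0.228 and 0.228 in WT (7354 reads against 117; -3.11 ± 0.07, adjusted p = 1.75e-04). KO1 stood apart from both KO2 and WT in this gene. MAGEA1, MAGEA11 and MUC5AC were under 1 FPKM in KO2 and entered the comparison through KO1. Their direction therefore follows from how they qualified. OLR1, the receptor of oxidized LDL, was at 15.1 and 14.3 in KO1 and 1.32 and 1.25 in KO2 (-2.78), KCNK15, a potassium channel, at 16.3 and 16.2 against 2.94 and 2.63 (-2.19) and APOL1 at 17.1 and 17.4 against 3.84 and 3.18 (-2.02). All 3 were lower in both KO2 libraries.

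On the higher side CGA, the shared subunit of glycoprotein hormones, was at 0.375 and 0.347 FPKM in KO1, 5.43 and 5.35 in KO2 and 0 in WT (38 reads against 470; 2.23 ± 0.07, adjusted p = 2.85e-04). SORBS2, an actin adaptor, was at 0.0749 and 0.0461 in KO1 and 2.95 and 3.05 in KO2 (1.92), OLFML1 at 0.324 and 0.231 against 3.37 and 3.78 (1.84) and PKDCC, a secreted kinase, at 0.218 and 0.247 against 3.43 and 3.07 (1.79). These 4 were under 1 FPKM in KO1 and entered the comparison through KO2, so their direction follows from how they qualified. Among genes well above 1 FPKM in both groups, ALPI, the intestinal alkaline phosphatase, was at 28.9 and 30.1 in KO1, 98.4 and 94.1 in KO2 and 0.0352 and 0 in WT (1.67 ± 0.04, adjusted p = 1.94e-04). Its placental relatives are near-identical, so its reads are uncertain. CLU, a secreted chaperone, was at 21.6 and 19.9 in KO1 and 57.6 and 59.7 in KO2 (1.46), and the imprinted gene PEG10 at 5.08 and 4.44 against 14.3 and 15.1 (1.45). PRRC2C was at 21.99 and 21.8 in KO1, 61.2 and 63.8 in KO2 and 27.6 and 28.2 in WT (1.47 ± 0.03, adjusted p = 1.61e-04). None of these genes overlapped between the knockout groups. BCHE (1.48), TGIF2LX (1.43), RNF150 (1.43), SERPINI1 (1.34) and CEACAM7 (1.28) qualified through KO2 alone, a filter that favours higher values in KO2. DCST1 was higher by 1.29. TGIF2LX has a near-identical copy and is uncertain. No protein-coding gene had 0 reads in both libraries of one knockout group and 1 FPKM or more in both of the other.

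Differences ran together along chromosomes. In windows of 25 neighbouring protein-coding genes, stretches whose window median departed by at least 0.3 from that of all genes were joined, which gave 8 higher and 5 lower stretches. They hold 1108 of the 10884 protein-coding genes, of which 481 were called higher and 322 lower; the 9776 genes outside had 1046 higher and 1750 lower, with a median of -0.03. Because a stretch was found from these differences, its counts are a description with no test.

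The most extreme higher stretch was chr1:161100556-180204030, where 52 of 68 genes were called higher and 2 lower (median 0.45). Its genes with at least 5 FPKM had a median ratio of KO2 to KO1 of 1.38. ATP1B1, the beta subunit of the sodium pump, was at 113 and 114 FPKM in KO1, 263 and 262 in KO2 and 55.4 and 54.9 in WT, a 2.32-fold difference (1.21 ± 0.02, adjusted p = 1.61e-04). PRDX6, a peroxiredoxin, was at 171 and 169 in KO1, 319 and 316 in KO2 and 112 and 114 in WT. Both genes were above both other groups in KO2, and PRRC2C lies in the same stretch, whereas PFDN2 at its edge was not called (0.05). A neighbouring stretch, chr1:150067279-156800817, had 106 of 136 genes higher and 3 lower (median 0.47, median ratio 1.39). It holds the S100 cluster, with S100A6 at 649 and 663 in KO1 and 974 and 859 in KO2 (0.48) and S100A11 at 564 and 537 against 654 and 646 (0.24). Another, chr6:24544104-28130082, spans the large histone cluster, with 18 of 49 higher and 6 lower (median 0.32). There the genes with at least 5 FPKM had a median ratio of 0.98, unlike histones such as H2BC12 (89.0 and 95.8 in KO1 and 146 and 146 in KO2). C6orf62 (-0.08) and HMGN4 (-0.16), both above 40 FPKM on average, were not called.

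On the lower side, chr13:19633681-94634645 had 108 of 128 genes called lower (median -0.48), and its genes with at least 5 FPKM had a median ratio of 0.682. TPT1, the translationally controlled tumour protein, was at 93.7 and 88.3 FPKM in KO1, 58.7 and 58.2 in KO2 and 112 and 107 in WT. POMP, which assembles the proteasome, was at 88.6 and 85.9 in KO1, 56.2 and 54.9 in KO2 and 114 and 108 in WT. RPL21 was at 180.3 and 182 in KO1 and 125 and 108 in KO2, with reads that its pseudogenes may share. In all 3 KO2 was the lowest group. Over the whole of chromosome 13, 144 of 178 genes were called lower. The single higher one, named after its value was seen, was EFNB2 (0.794 and 0.675 against 1.73 and 1.77, 0.67). EFNB2 entered the comparison through KO2 alone, so its direction follows from how it qualified. In the part of the chromosome beyond the stretch 36 of 50 genes were lower, with a median ratio of 0.823. Chromosome 9 held lower stretches at chr9:113386317-127503501 (30 of 50 lower and 3 higher, median -0.35, median ratio 0.747) and chr9:128945530-137236554 (78 of 109 lower and 3 higher, median -0.37, median ratio 0.757). RPL7A in the latter was at 823 and 825 in KO1 and 615 and 601 in KO2 (-0.44), and SURF4, a cargo receptor, at 134 and 132 against 106 and 105 (-0.33), both without overlap. RPL12 in the former was not called (-0.04), and that sign changed under quantile normalization (0.03).
Further stretches were chr17:51260528-83095119 (155 of 227 higher and 9 lower, median ratio 1.27), chrX:55143102-134520513 (92 of 128 higher and 3 lower, median ratio 1.33) and chr11:78188812-114313285 (60 of 81 lower and 3 higher, median ratio 0.749). Without the members in any stretch, an alternative chosen after seeing the data, and again over genes at 1 FPKM or more in all 4 knockout libraries, 11 of 12 genes of the NF-kB list were called lower, with a median of -0.98. No interferon-stimulated gene of the list lies in a stretch, and outside the stretches 13 of 18 YAP/TAZ targets were lower and 17 of 25 mitosis genes higher. Of all 9776 protein-coding genes outside the stretches, however they qualified, 1046 were called higher and 1750 lower. The part of the stretches in the list differences was not tested.

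**Figure D5:**
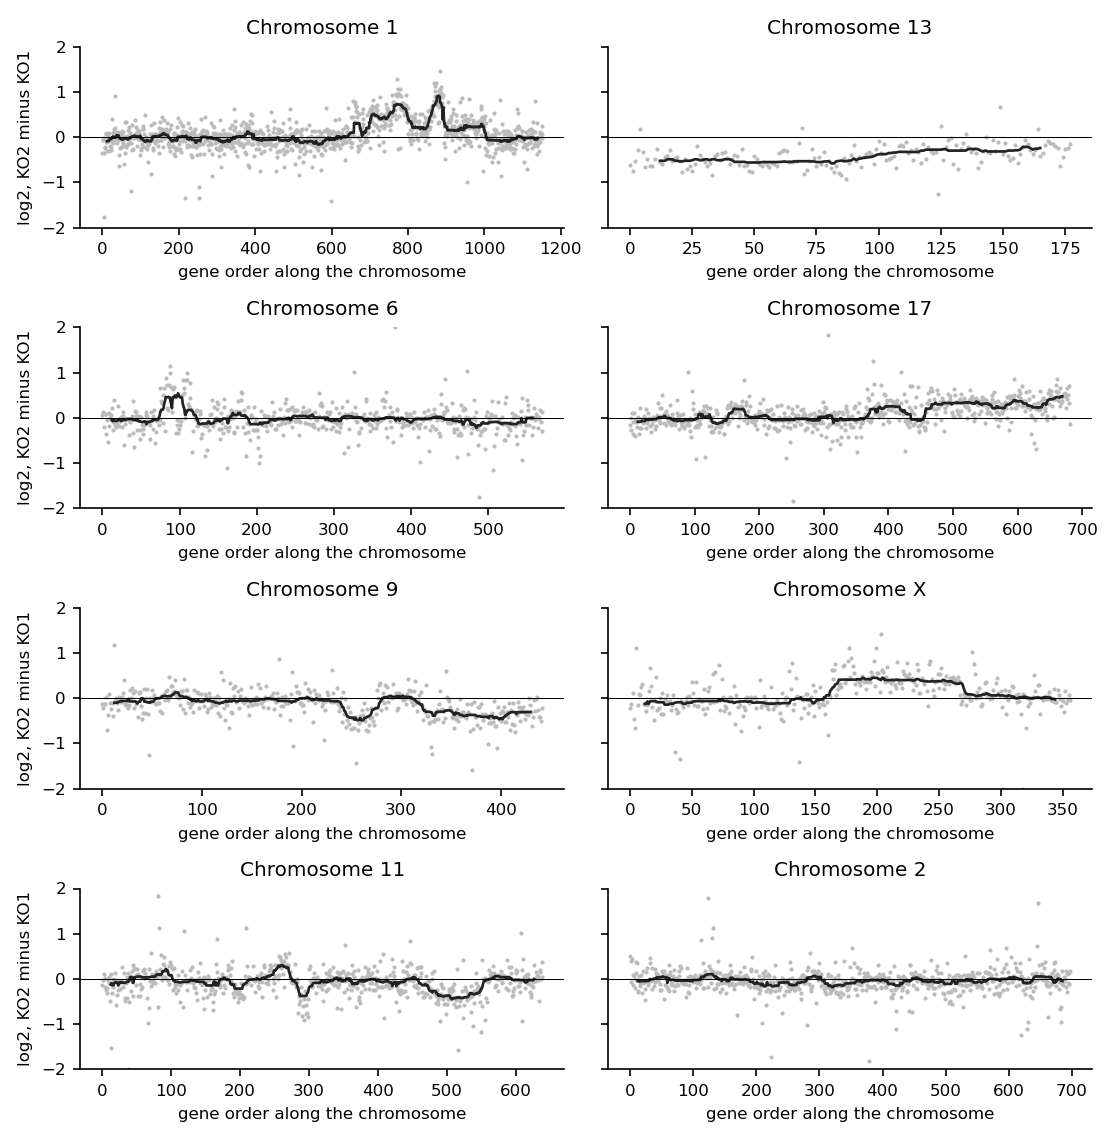
Log2 difference KO2 minus KO1 of protein-coding genes in their order along 8 chromosomes: grey points are genes, the black line is the median over 25 neighbouring genes, and points beyond 2 in either direction are drawn at the edge. The line rises over parts of chromosomes 1, 6, 17 and X, stays below 0 along chromosome 13 and dips on chromosomes 9 and 11, while chromosome 2 is drawn for comparison.

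Against the WT reference level, genes that differed between the knockout groups did not line up in one way. Of the 1770 genes higher in KO2, the WT mean was below both knockout groups for 950 (53.7%), between them for 294 (16.6%) and above both for 526 (29.7%). Of the 2366 lower genes it was below both for 1057 (44.7%), between for 374 (15.8%) and above both for 935 (39.5%). Among the 9833 genes not called, it was below both for 5149 (52.4%), between for 665 (6.76%) and above both for 4019 (40.9%).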

How the data were processed

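Total RNA of 6 libraries (2 each of WT, KO1 and KO2) was sequenced, and the authors deposited 1 table of FPKM values per library for 58735 Ensembl gene identifiers, all found in GENCODE 29 (GRCh38). The submitters' processing notes name HISAT2 2.0.5, featureCounts 1.5.0-p3 and hg38; the sources used here give neither strand setting nor annotation. FPKM divides by length and by mapped reads, so it is relative to the rest of each library. Multiplied by exon length, all values gave whole reads (within 0.1), which set the depths. Differences are KO2 minus KO1 of log2(FPKM + 1), which understates changes of low genes, tested two-sided with limma 3.58.1 (R 4.3.3) over all 6 libraries with a mean-variance trend and Benjamini-Hochberg adjustment over the 16046 genes at 1 FPKM or more in at least 2 libraries. The fit has 3 residual degrees of freedom and was tested on simulated data.

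The genes named are the title's genes, the 15 largest called differences each way, the 4 genes of lowest adjusted p in each list and up to 5 abundant genes per stretch; further list members were named after their values were seen. The comparison, members and lists were chosen with earlier results of these data known. Lists are described by counts and medians, without a test. Alternatives were other pseudocounts, filters, scalings and fits and each library left out. Single values of a few list members are not reported here.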

Additional observations from a re-analysis of the deposited data

How the results depend on the processing

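Across 18 alternatives no gene was called in the opposite direction. Against a fold of 1.5, limma called 41 genes higher and 88 lower. With any one library left out, 826 to 1449 genes were called higher and 1003 to 1818 lower. The replicate numbers did not pair the libraries (correlation of deviations -0.027 between KO1 and KO2), and a fit with the replicate as a block called 1465 higher and 1959 lower. Counts modelled from the recovered reads with voom gave 2605 and 2614, and without the filter on low values 1390 and 1795. Quantile normalization gave 2158 and 2098, so the split between higher and lower depends on the scaling. Of 174 named genes with a call, 142 kept it and its direction in every alternative except the fold test. The difference in WWTR1, never called, became 0.0222 under quantile normalization, 0.0035 with median-of-ratios scaling, 0.0122 with library-size scaling and 0.0131 with voom, and ranged from -0.0621 to 0.0396 with any one library left out. KRT86 ranged from -0.3706 to 0.0356 and ANKRD1 from -0.0309 to 0.0 with any one library left out, and under quantile normalization MT-CO2 became 0.0, MT-ND1 0.0188 and RPL12 0.0325. Genes with few reads, such as IL6 in KO2, have uncertain sizes: with a pseudocount of 0.1 its difference was -3.58.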

Other observations

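Long non-coding genes were not part of the lists. Of 1597 in the comparison, 158 were called higher in KO2 and 160 lower, with a median log2 difference of 0.01. Over all 13969 genes, 12.7% were called higher and 16.9% lower, so long non-coding genes were called less often than all genes. UICLM was at 4.68 and 5.25 FPKM in KO1 and 0.327 and 0.771 in KO2 (-1.96 ± 0.15, limma Benjamini-Hochberg adjusted p = 0.00171). LINC03078 was at 21.2 and 19.6 in KO1 and 5.76 and 3.76 in KO2 (-1.92 ± 0.21, limma adjusted p = 0.00366). FAM230C was higher, at 0.152 and 0.0893 in KO1 and 2.36 and 1.72 in KO2 (1.43). None of these 3 genes belongs to a list, and they were chosen after their values were seen. UICLM was under 1 FPKM in both KO2 libraries and FAM230C in both KO1 libraries. Each entered the comparison through the other group, so direction and lack of overlap follow from how it qualified. LINC03078 was above 1 FPKM in all 4 knockout libraries, and its groups did not overlap.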
